A study of Canis lupus familiaris with 12 samples.

Results

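Genes of DNA replication and the cell division cycle were examined in liver of 12 female beagles, with 1 array per dog. They were taken by symbol from the probe-to-gene table of the array: every probe set with a single gene symbol that began with MCM, ORC, RFC, CENP, BUB, E2F, CDKN, CCNA, CCNB, CCND, CCNE, or CDC and a digit, or was a named symbol such as PCNA, RRM1, AURKA or GTSE1. The rule found 71 of 23836 probe sets, which carry 48 of the 6540 gene symbols with a probe set of their own. The rule used no value of these arrays, but it was written with earlier results of these data known. GTSE1, which it names, is among the genes the study listed.

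The dogs formed 4 groups of 3. Senior dogs were 12 years old and young adult dogs 1 year old when liver was taken after an overnight fast. Each had eaten 1 of 2 diets for 12 months. APB, based on animal protein, was formulated to 28% protein, 23% fat and 5% fiber, and PPB, based on plant protein, to 26% protein, 11% fat and 15% fiber. The young adult dogs had entered the study at 8 weeks of age and ate freely while they grew. The senior dogs had entered at a mean of 11.1 years and were given only enough food to hold their body weight. The ages came from different suppliers, so age, feeding regime, growth and supplier cannot be told apart. Values are log2 expression on the arrays, and a difference of 1 on that scale is 2-fold.

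A cell that divides first licenses its replication origins, where the origin recognition complex loads the ring-shaped MCM helicase. The helicase opens DNA, the RFC complex loads the PCNA clamp that holds the polymerases, and ribonucleotide reductase supplies the deoxynucleotides. Cyclins and their kinases drive the cell from phase to phase and the CDKN proteins hold them back, and the centromere proteins, aurora kinases and spindle checkpoint share out the chromosomes. Hepatocytes of adult liver are mostly quiescent and re-enter the cycle after injury or loss of tissue, and a growing liver holds more dividing cells.

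Most of the best known markers of dividing cells had no singly named probe set in the table and are unnamed here: MKI67, TOP2A, CDK1, the helicase subunits other than MCM7, RRM2, PLK1, CDC20, and all A, D and E cyclins. What was measured is therefore a partial view of the cycle. Of the 71 probe sets, 50 probe sets of 36 genes were bright enough to be tested, that is, their third-brightest array reached 2.85, and 21 were too dim. The dim probe sets lay between 1.85 and 3.11 on all arrays, and 18 of them varied by less than 0.5 over the 12 dogs. They left 12 genes with no tested probe set, among them ORC1 and ORC6 of the origin recognition complex, the origin-firing kinase CDC7, CDKN3, E2F7, CENPF and the phosphatases CDC14A and CDC14B. The tested probe sets spanned a median range of 1.52 over the dogs, from 0.30 for AURKA to 3.21 for CENPM. Among the 71, 13 probe sets of 11 genes, 10 of them tested, were assigned a main function outside the cycle. They are called taken by name only here and are kept apart in the account of roles. CDC37 is a kinase chaperone, and CDC5L and CDC40 are splicing factors. CCNDBP1 was placed with them but is a binding partner of cyclin D, so the label fits it only loosely.

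Arrays of the same group correlated at 0.94 to 0.98. Control transcripts read at both ends showed how far the 5' end trailed the 3' end, a log2 difference called the 3' gap here. It was 9.21 and 8.80 in young APB dogs 1 and 2 and 2.32 to 7.03 on the other 10 arrays. Senior PPB dog 2 had the narrowest gap, 2.32, and was the highest of the 12 dogs in 20.3% of all probe sets. Young APB dog 1, with the widest gap, was the highest in 20%. Among the tested probe sets these shares were 15.8% and 18.1%. Senior APB dog 1 is described with the members in which it stood apart. The tested hepatocyte markers had a mean level of 12.9 to 13.6 on the arrays. All but TAT were bright on every array, and TAT ran from 2.35 in senior APB dog 2 to 6.59 in senior APB dog 3. The part of these array differences in any result below was not tested beyond the values printed beside it.

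Age was compared first, across dogs that had just grown and dogs long past growth. By limma, no member passed an adjusted p of 0.1 together with a 2-fold difference for age averaged over diets, where 0.0726% of all tested probe sets did. At an unadjusted p under 0.05, 10 of the 50 tested members were found, which is 20% against 12% of all tested probe sets. The count ran from 7 to 15 when 1 dog was left out (15 without young APB dog 3). Here and below, leaving out young APB dog 3 left only young APB dogs 1 and 2 in their group. These are the pair with the widest 3' gap, and without young APB dog 3 2.99% of all tested probe sets were called for age averaged over diets. Of these 10, 6 were lower in senior dogs (7.8% of all tested probe sets were) and 4 were higher (4.2%). Among the 4 are GTSE1, which the study had listed from these same dogs, and CCNB2 (1604160_at). The CCNB2 probe set passed the filter only because senior dogs fed APB were high. The median difference over the 50 members was -0.08, beside -0.02 over all tested probe sets, and 30 lay below 0 and 20 above it. No member had senior and young adult dogs fully apart, against 0.748% of all tested probe sets. The smallest adjusted p of any member was 0.195. In whole liver, fewer cells of a type and less RNA per cell cannot be told apart.

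**Figure D1:**
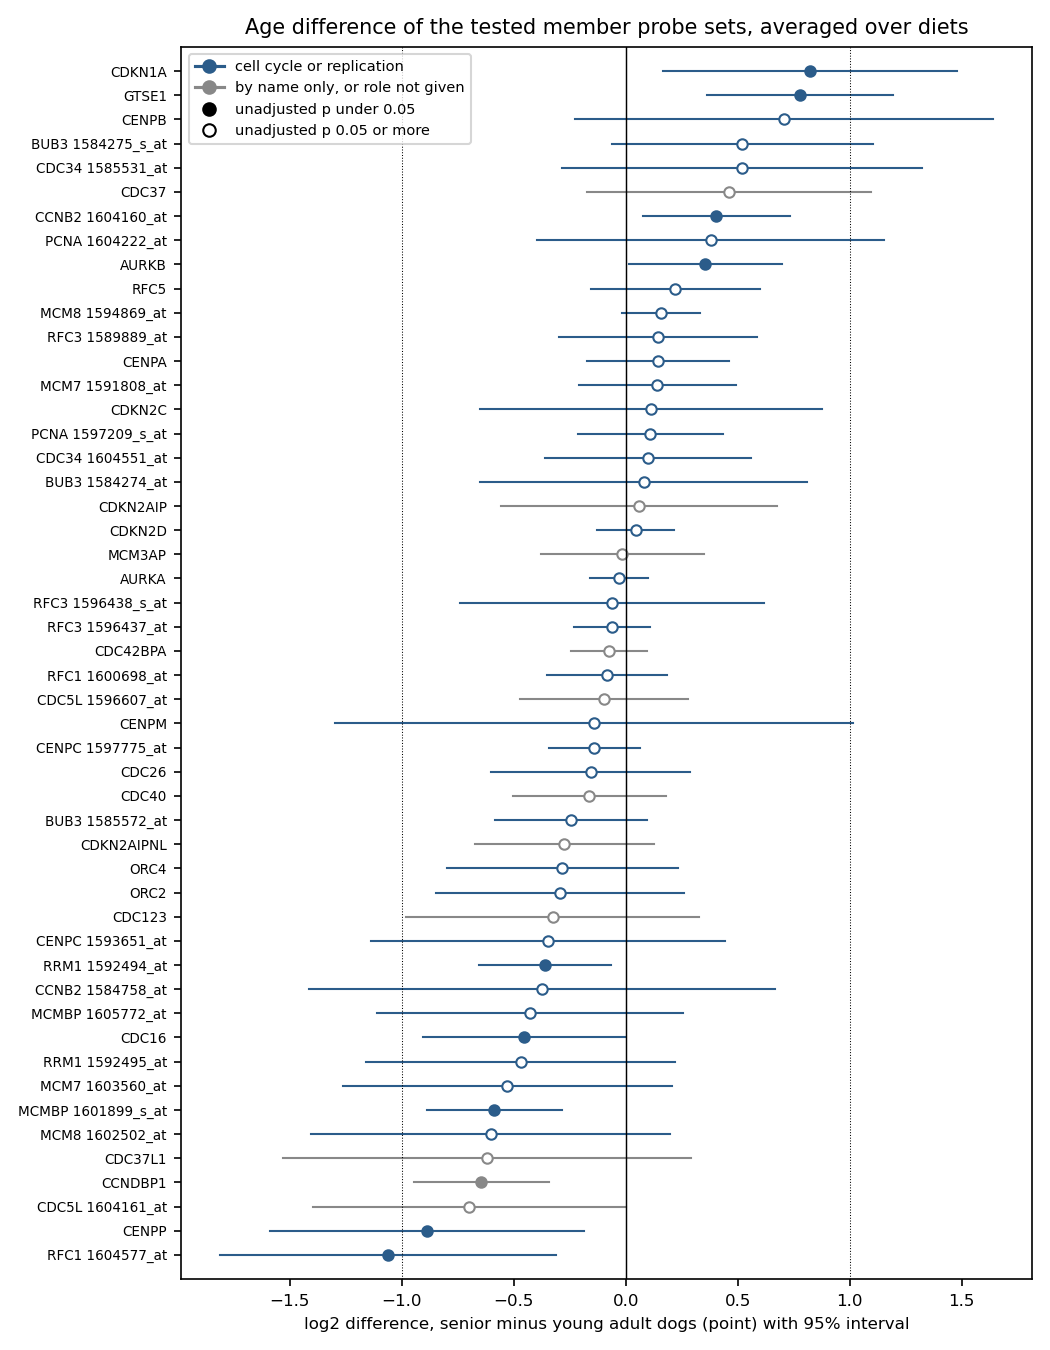
Log2 difference of senior minus young adult dogs (x axis) for each of the 50 tested member probe sets (rows), with 95% intervals from the linear model. Filled points are the 10 members with an unadjusted p under 0.05, grey marks members taken by name only or with no role given, and dotted lines mark 2-fold; the differences run from -1.06 for RFC1 to 0.82 for CDKN1A, on both sides of 0.

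Of the 4 tested probe sets of origin and helicase genes 3 had negative age differences, and the intervals of all 4 held 0. ORC4, a subunit of the origin recognition complex, ran from 4.71 to 5.64 in senior dogs (median 5.27) and from 4.77 to 5.89 in young adult dogs (median 5.64). ORC2 and ORC4 gave differences of -0.29 (95% interval -0.85 to 0.26) and -0.28 (-0.80 to 0.23) in senior dogs. MCM7, the sole helicase subunit measured, had 2 tested probe sets of opposite sign. Probe set 1603560_at ran from 3.32 to 4.30 in senior dogs (median 3.85) and from 3.26 to 5.17 in young adult dogs (median 4.44), a difference of -0.53 with an interval of -1.26 to 0.21. Probe set 1591808_at lay between 2.89 and 3.03 on 11 arrays and at 3.91 in senior PPB dog 2, and that dog alone made its difference positive (0.14, and -0.02 without it). MCM8, which acts in repair of broken forks, likewise gave 0.16 and -0.60 with its 2 probe sets.

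MCMBP, which binds the MCM complex and takes part in unloading it from chromatin, was the replication gene with the smallest p. Its probe set 1601899_s_at read 5.85, 5.45 and 5.63 in the senior dogs fed APB and 6.46, 6.19 and 6.05 in those fed PPB. The young adult dogs read 6.45, 6.17 and 6.42 with APB and 6.35, 6.74 and 7.03 with PPB. The 3 senior dogs fed APB were thus the lowest of all, and the other senior dogs overlapped the young ones. The age difference was -0.59 (SE 0.13, adjusted p = 0.207) and stayed at -0.62 with the 3' gap of the array in the model. The other probe set of MCMBP, 1605772_at, gave -0.43 with an interval of -1.11 to 0.26.

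At the fork, RFC1 showed the widest age difference of any member. RFC1 is the large subunit of the clamp loader. Probe set 1604577_at read 6.26, 6.37 and 5.40 in senior dogs fed APB and 5.75, 4.02 and 4.65 in those fed PPB. Young adult dogs read 6.82, 6.70 and 6.11 with APB and 7.05, 6.18 and 5.97 with PPB. All 3 senior dogs fed PPB lay below every young adult dog, while 2 of the 3 fed APB lay within the young range. The difference was -1.06 (SE 0.33, 2.09-fold, adjusted p = 0.309) averaged over diets and -1.59 (SE 0.47, 3.01-fold, adjusted p = 0.662) with PPB, where 0.0508% of all tested probe sets were called. With the 3' gap in the model the averaged value was -0.71, and without senior PPB dog 2 it was -0.87. RFC1 passed both thresholds when arrays were weighted by their quality (-1.09, adjusted p = 0.0649, with 3.3% of all probe sets called) and without senior PPB dog 1 (-1.30, adjusted p = 0.096, with 1.05% called). A second probe set of RFC1, 1600698_at, was dim, between 3.22 and 3.41 in all dogs but young APB dog 3 (4.002), and differed by -0.08.

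The other subunits of the clamp loader did not follow RFC1. RFC5 gave 0.22 (interval -0.16 to 0.60), and the 3 probe sets of RFC3 lay between -0.06 and 0.14. PCNA, the sliding clamp and a common marker of S phase, was not lower in senior dogs. Its probe set 1597209_s_at read 6.82, 6.34 and 6.01 in senior dogs fed APB, 5.98, 5.72 and 6.12 in those fed PPB, 6.28, 6.32 and 5.95 in young adult dogs fed APB and 5.97, 5.77 and 6.04 in those fed PPB. The groups overlapped, and the age difference was 0.11 with an interval of -0.21 to 0.43, 0.24 with the 3' gap in the model and 0.0029 without senior APB dog 1. That interval holds no difference of 2-fold in either direction. Its other probe set, 1604222_at, gave 0.38 with an interval of -0.40 to 1.15, and 0.11 without senior APB dog 1.

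RRM1, the large subunit of ribonucleotide reductase, was lower in senior dogs at an unadjusted p under 0.05. Probe set 1592494_at ran from 6.89 to 7.70 in senior dogs (median 7.36) and from 7.51 to 8.11 in young adult dogs (median 7.64). Of the 6 senior dogs only senior APB dog 2 reached the young range. The difference was -0.36 (SE 0.13, adjusted p = 0.357) and was -0.19 with the 3' gap in the model. The second tested probe set, 1592495_at, lay between 2.51 and 3.04 on 10 arrays and stood at 4.82 and 3.45 in young APB dogs 1 and 2, the pair with the widest 3' gap. Its difference of -0.47 became 0.03 without that pair.

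Cyclins were represented by CCNB2, which with CDK1 drives entry into mitosis, and by the dim CCNB3. CCNB2 probe set 1604160_at read 3.60, 3.45 and 2.72 in senior dogs fed APB and 2.45, 2.38 and 2.56 in young adult dogs fed APB, so these groups did not overlap. With PPB it read 2.97, 2.75 and 2.66 in senior and 2.95, 2.70 and 2.71 in young adult dogs. The age difference was 0.80 (SE 0.21, adjusted p = 0.358) with APB and 0.40 (SE 0.15, adjusted p = 0.357) averaged over diets. The brighter probe set 1584758_at went the other way, at -0.37 with an interval of -1.41 to 0.67, and turned to 0.24 with the 3' gap in the model. The symbol alone therefore gives no direction for CCNB2 in these livers.

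The 3 tested CDK inhibitors had positive age differences. CDKN1A encodes p21, which halts the cycle downstream of p53. It read 9.005, 8.08 and 7.17 in senior dogs fed APB and 7.94, 7.72 and 6.92 in those fed PPB. Young adult dogs read 7.23, 7.21 and 6.92 with APB and 6.73, 6.92 and 6.90 with PPB. Of the 6 senior dogs 4 lay above every young adult dog and 2 lay among them, and the SD was 0.92 among senior APB dogs and 0.10 among young PPB dogs (n = 3 each). The difference was 0.82 (SE 0.29, 1.77-fold, adjusted p = 0.349), 0.94 with the 3' gap in the model, and 0.59 without senior APB dog 1. CDKN2C, an inhibitor of CDK4 and CDK6, ran from 4.36 to 6.41 in senior dogs (median 5.07) and from 4.50 to 6.14 in young adult dogs (median 4.75), where young APB dog 1 was the highest. CDKN2C and CDKN2D, an inhibitor of the same kinases, gave 0.11 (interval -0.65 to 0.88) and 0.04 (-0.13 to 0.22), and both differences were negative without senior APB dog 1 (-0.15 and -0.020). For CDKN2D this interval holds no difference of 2-fold.

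GTSE1, a protein of the G2 and S phases that takes p53 out of the nucleus, was higher in senior dogs at an unadjusted p under 0.05. It is among the genes the study listed from these same dogs, so its direction is no independent evidence. It read 9.41, 9.98 and 9.62 in senior dogs fed APB and 9.63, 10.73 and 10.11 in those fed PPB. Young adult dogs read 9.54, 9.19 and 9.09 with APB and 9.08, 9.004 and 8.90 with PPB. All senior dogs but senior APB dog 1 lay above every young adult dog. The difference averaged over diets was 0.78 (SE 0.18, 1.72-fold, adjusted p = 0.213), and 0.80 with the 3' gap in the model. It was 1.16 (SE 0.26, 2.24-fold, adjusted p = 0.662) with PPB and 0.39 (SE 0.26, adjusted p = 0.639) with APB. The difference between the diets was itself -0.77 with an interval of -1.60 to 0.06. GTSE1 with PPB passed both thresholds with array weights (1.14, adjusted p = 0.0339, with 3.56% of all probe sets called) and without senior PPB dog 1 (1.43, adjusted p = 0.0728, with 0.421% called).

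The kinases, checkpoint and ubiquitin ligase parts of mitosis lay on both sides of 0. AURKB, the kinase of the chromosomal passenger complex, ran from 3.06 to 3.14 in young adult dogs and from 3.01 to 3.82 in senior dogs, where senior APB dog 1 (3.82), senior PPB dog 2 (3.81) and senior PPB dog 1 (3.67) stood highest. Its difference was 0.35 (SE 0.15, adjusted p = 0.403). AURKA, which matures the spindle poles, was flat (-0.03, interval -0.16 to 0.10). The 3 tested probe sets of the spindle checkpoint protein BUB3 gave -0.24, 0.08 and 0.52. CDC16 is a subunit of the anaphase-promoting complex, the ligase that ends mitosis, and gave -0.45 (SE 0.20, adjusted p = 0.412) but -0.18 with the 3' gap in the model. Another subunit of that complex, CDC26, gave -0.16 (interval -0.60 to 0.29). CDC34, a ubiquitin-conjugating enzyme of the G1 to S step, gave 0.52 and 0.10 with its 2 probe sets, both with intervals that hold 0. The first of these ran from 6.05 to 8.01 in senior dogs (median 6.62) and from 5.34 to 7.30 in young adult dogs (median 6.28), with senior PPB dog 2 at the top and young APB dogs 1 and 2 at the bottom.

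Of the centromere proteins CENPP, a kinetochore subunit, was bright. It ran from 11.62 to 12.12 in young adult dogs (median 12.09) and from 9.85 to 11.99 in senior dogs (median 11.14). Only senior APB dog 2 (11.99) and senior PPB dog 1 (11.63) reached the young range. The difference was -0.89 (SE 0.31, 1.85-fold, adjusted p = 0.349), and -0.62 without senior APB dog 1, the lowest. CENPB, which binds a repeat of centromeric DNA, ran from 3.59 to 6.02 in senior dogs (median 4.04) and from 3.39 to 4.19 in young adult dogs (median 3.59). Its difference was 0.71 (interval -0.23 to 1.64), 0.24 with the 3' gap in the model and 0.38 without senior PPB dog 2, the highest. CENPA, the histone that marks the centromere, was between 2.79 and 2.92 in all dogs but senior APB dog 1 (3.71). CENPM ran from 4.52 to 7.73 in senior dogs and from 6.05 to 7.31 in young adult dogs, with both ends of the range in senior dogs fed APB. CENPC and CENPM gave differences between -0.35 and -0.14, with intervals that hold 0.

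**Figure D2:**
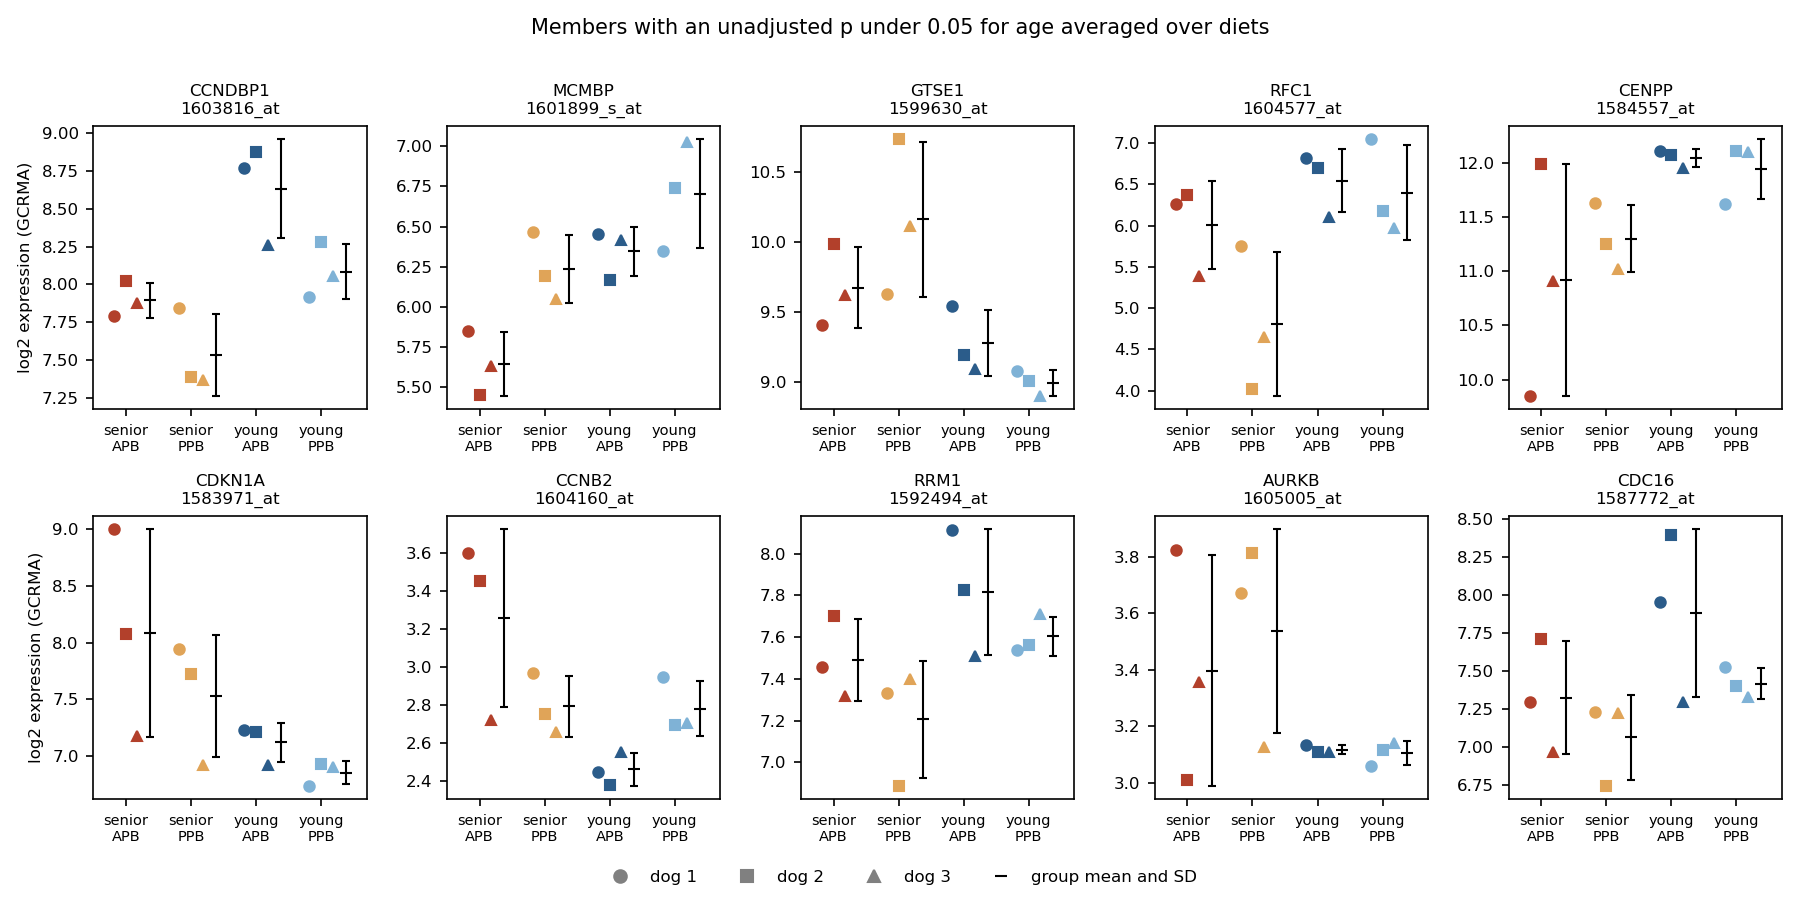
Log2 expression (y axis, scale set per panel) of the 10 member probe sets with an unadjusted p under 0.05 for age averaged over diets, by group (x axis); each mark is 1 dog, shaped by its number in the group, and the black bar is the group mean with the SD. Senior and young adult dogs overlap in every panel, for example in RFC1, where senior dogs fed APB reach 6.37 and young adult dogs start at 5.97.

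The members taken by name only included the smallest p of all. CCNDBP1 read 7.79, 8.02 and 7.87 in senior dogs fed APB and 7.85, 7.39 and 7.36 in those fed PPB. Young adult dogs read 8.77, 8.87 and 8.26 with APB and 7.92, 8.28 and 8.05 with PPB. Within each diet the ages did not overlap. The difference was -0.65 (SE 0.13, 1.56-fold, adjusted p = 0.195), and -0.52 with the 3' gap in the model. CDC5L, a splicing factor, gave -0.70 (SE 0.31, adjusted p = 0.417) with probe set 1604161_at and -0.10 with 1596607_at. CDC37L1 gave -0.62 (interval -1.53 to 0.29), CDC123, a translation factor assembly protein, -0.33 (-0.98 to 0.33) and CDC37 0.46 (-0.17 to 1.10). CDC37 lay between 5.48 and 5.79 in 10 dogs, at 7.01 in senior PPB dog 2 and at 4.52 in young PPB dog 1. Without the 10 tested probe sets of this kind, CCNDBP1 among them, 9 of the remaining 40 members had an unadjusted p under 0.05. The median difference of the 40 was -0.05.

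Probe sets of the same gene did not always share a sign. Of the 12 genes with more than 1 tested probe set, 5 had differences of opposite sign for age: BUB3, CCNB2, MCM7, MCM8 and RFC3. Some of these differences lay near 0, such as -0.06 and 0.14 for RFC3 and 0.08 for a probe set of BUB3. The share over all genes with several probe sets was not worked out. MCMBP, RRM1, RFC1 and PCNA had the same sign in each of theirs, though RFC1 ran from -1.06 to -0.08. Which transcripts each probe set detects was not tested.

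**Figure D3:**
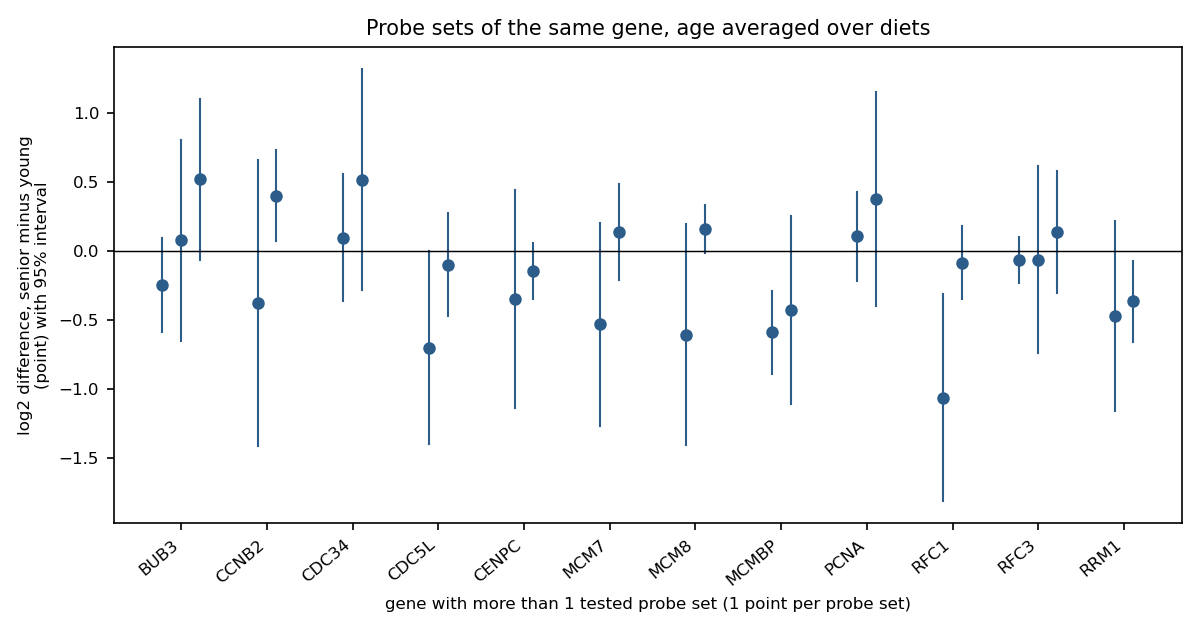
Log2 difference of senior minus young adult dogs (y axis) with its 95% interval for every tested probe set of the 12 genes (x axis) with more than 1, averaged over diets. BUB3, CCNB2, MCM7, MCM8 and RFC3 have points on both sides of 0, while the RFC1 points lie at -1.06 and -0.08.

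Within each diet the members again stayed near the background. With APB no member was called (0.0145% of all tested probe sets were), and 6 members (12%) had an unadjusted p under 0.05, against 9.56% of all. That count was 3 if senior APB dog 1 or young APB dog 2 was left out and 11 if young APB dog 3 was. Ages did not overlap in 4 members, CCNDBP1, CCNB2, MCMBP and PCNA (1604222_at), which is 8% against 10.6% of all. The CCNB2 probe set passed the filter only because senior dogs fed APB were high, so it supports neither this count nor the 6. The PCNA probe set read 6.46, 4.88 and 4.85 in senior and 4.49, 4.34 and 4.60 in young adult dogs fed APB, a difference of 0.92 (SE 0.49, adjusted p = 0.562). The median over the members was -0.17 with APB, beside -0.05 over all, and 0.07 without young APB dogs 1 and 2. With PPB no member was called, 5 members (10%) had an unadjusted p under 0.05 against 7.5% of all (3 without senior PPB dog 2), and the median was 0.01, beside 0.01 over all. Ages did not overlap in 9 members, which is 18% against 12.8% of all. CDC5L (1604161_at) was among them at -1.13 (SE 0.44, adjusted p = 0.662), with senior PPB dog 2 the lowest at 5.52.

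Several members shared an array in which they stood apart, senior APB dog 1. That dog was the highest of the 12 in 13 of the 71 members and in 5.27% of all probe sets. It lay above every other dog by at least 0.5 in 5 members, which is 7.04% against 1.13% of all probe sets, namely CDKN1A, CENPA, PCNA (1604222_at), CDC7 and ORC1. This pattern was chosen after the values were seen and carries no test. CDC7 stood at 3.10 in this dog and between 2.45 and 2.57 in the others, and ORC1 at 2.83 against 2.27 to 2.33. The second PCNA probe set was also highest there (6.82, next 6.34), as were CDKN2C (6.41, next 6.14) and CDKN2D (4.73, next 4.48). By contrast senior APB dog 1 lay below every other dog by at least 0.5 in CENPP (9.85, next 10.91) and CENPM (4.52, next 6.05). These are 2.82% of the members, against 0.306% of all probe sets. That dog was also lowest, by less than 0.5, in other members, such as AURKA, BUB3 (1584274_at), RFC3 (1596437_at) and the dim ORC6 and CENPF. It was thus not high across the members. ORC1 and CDC7 were not tested for age, since fewer than 3 arrays reached the level required.

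Markers of macrophages and Kupffer cells, the macrophages of the liver, were high in the same dog. Of the 15 listed, 11 had a tested probe set, and 8 of these 11 were highest in senior APB dog 1. Of all tested probe sets, 6.78% were highest in that dog. Their mean level was 9.39 in that dog, within 8.09 to 9.39 over the senior dogs fed APB, 7.85 to 8.83 over those fed PPB, 7.58 to 8.01 over young adult dogs fed APB and 6.95 to 8.50 over those fed PPB. CD163 read 11.1 in that dog and 7.10 to 10.2 in the others, while MARCO was nearly tied (10.62, and 10.6 in senior PPB dog 2). CSF1R (10.79) and CD14 (10.68) were higher in senior PPB dog 2 (11.14 and 11.46). LYZ (6.82) was highest in young PPB dog 3 (7.515). For age averaged over diets 5 of the 11 were higher in senior dogs at an unadjusted p under 0.05, against 4.2% of all tested probe sets, with a median of 0.78. This dog also had the highest mean level of the tested markers of cholangiocytes (9.05, against at most 7.88 in the young adult groups and 7.80 with PPB among seniors), neutrophils (4.13) and B and plasma cells (9.02), in lists of 2, 2 and 3 tested genes, with 1 gene highest there in each. It was highest in 4 of the 7 tested genes of p53 and senescence, beside the same 6.78% of all tested probe sets, with a mean level of 6.98. Whether these cell types account for any of the members' values was not tested. Senior PPB dog 2 likewise lay above every other dog by at least 0.5 in 5 members (7.04%), which were GTSE1, CDC34, CENPB, MCM7 and CDC37, against 3.34% of all probe sets.

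**Figure D4:**
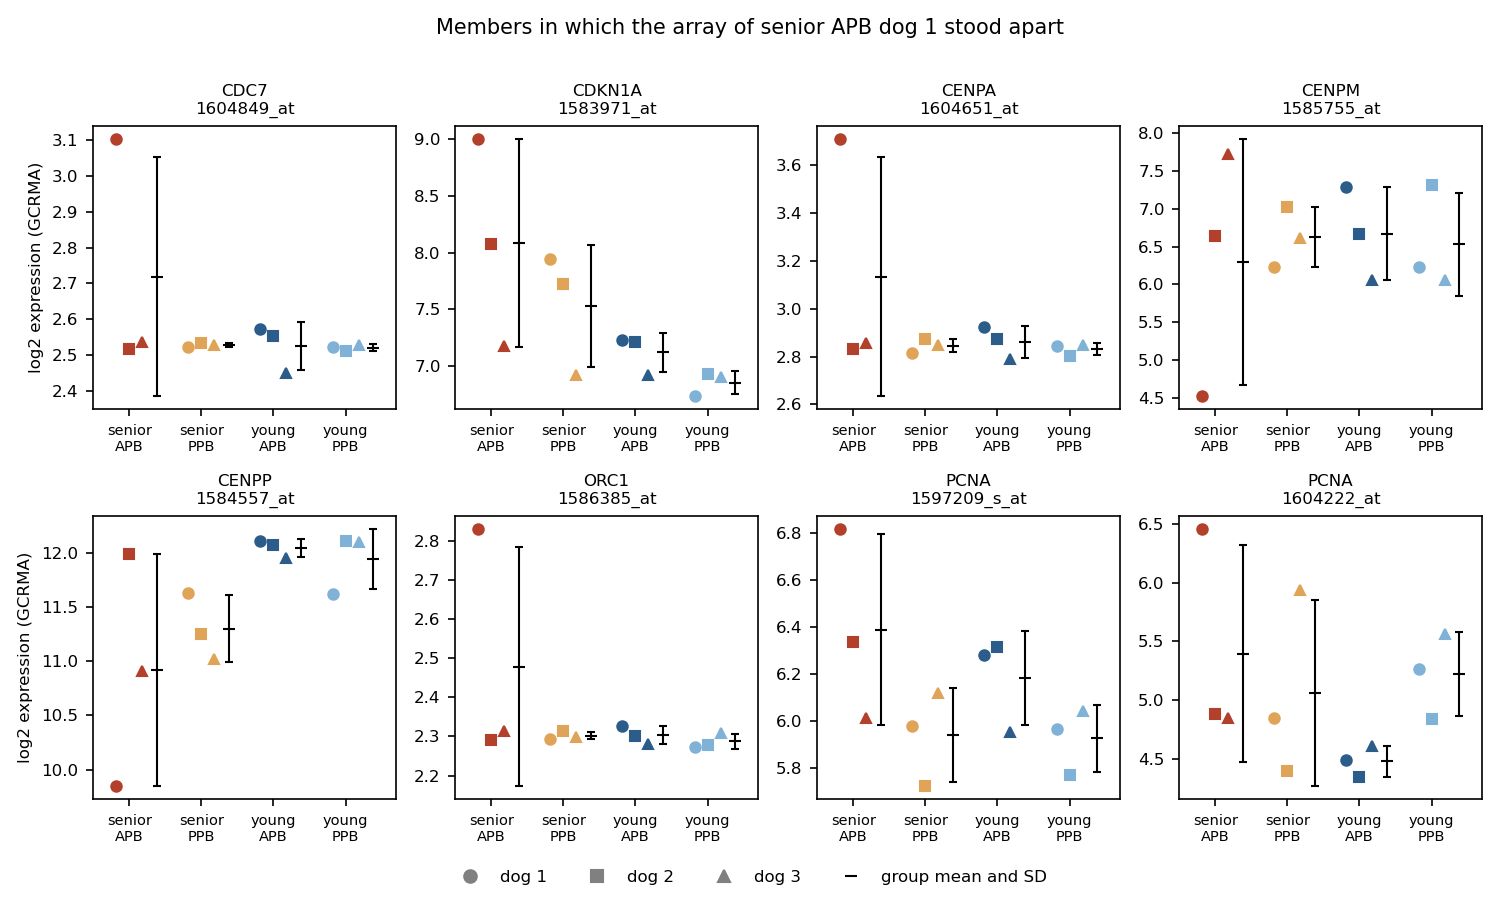
Log2 expression (y axis, scale set per panel) by group (x axis) of the members that senior APB dog 1 (first circle in each panel) led or trailed, and of both PCNA probe sets; marks are dogs and black bars are group means with SD. The circle is at the top for CDKN1A (9.005) and both PCNA panels (6.82 and 6.46) and at the bottom for CENPP (9.85) and CENPM (4.52).

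Diet was compared next, APB against PPB. Averaged over ages no member was called, and no tested probe set was (0%). At an unadjusted p under 0.05 there were 5 members (10%), against 8.35% of all, and from 2 (without senior APB dog 2, among others) to 12 (without young APB dog 3) when 1 dog was left out. MCMBP was lower with APB with both probe sets, by -0.48 (SE 0.13, adjusted p = 0.594) and -0.76 (SE 0.30, adjusted p = 0.594). The second of these was -0.24 with the 3' gap in the model, and was called with array weights (-1.11, adjusted p = 0.0427, with 4.2% of all probe sets called) and without young APB dog 3 (-1.005, adjusted p = 0.0512, with 3.51% called). CCNDBP1 was higher by 0.46, PCNA (1597209_s_at) was higher by 0.35 and RFC5 was lower (-0.42), all with adjusted p = 0.594, and the PCNA difference was 0.16 with the 3' gap in the model. Diets did not separate in any member, against 0.0435% of all.

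In senior dogs 2 members (4%) had an unadjusted p under 0.05 for diet, against 2.94% of all tested probe sets, and none was called (0% of all). The count ran from 1 (without senior APB dog 1 or senior PPB dog 2) to 8 (without senior PPB dog 1) when 1 dog was left out. MCMBP (1601899_s_at) was lower with APB by -0.59 (SE 0.19, adjusted p = 0.945), with the 3 dogs of each diet apart. RFC1 (1604577_at) was higher with APB at 1.20 (SE 0.47, adjusted p = 0.945), with overlapping dogs. The diets did not overlap in 5 members, which is 10% against 7.06% of all.

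In young adult dogs 4 members (8%) had an unadjusted p under 0.05 for diet, against 9.78% of all, and none was called (0% of all). The count was 1 if young APB dog 1 or 2 was left out and 9 if young APB dog 3 was. MCMBP (1605772_at) read 4.74, 3.83 and 5.75 with APB and 5.72, 5.92 and 5.95 with PPB, a difference of -1.09 (SE 0.43, adjusted p = 0.48). The low values were those of young APB dogs 1 and 2, and the difference was -0.39 with the 3' gap in the model. RRM1 (1592495_at) gave 0.98 (SE 0.43, adjusted p = 0.51), which was 0.28 with that term and -0.01 without the same pair of dogs. This probe set passed the filter only because that pair was high, so it lends the count of 4 no support. CDC5L (1596607_at) gave -0.66 and CCNDBP1 0.55, both with adjusted p = 0.48. Diets did not overlap in 7 members, which is 14% against 10.8% of all. The 3' gap ran from 4.37 to 9.21 in young adult dogs fed APB and from 3.37 to 4.93 in those fed PPB, so it moved with diet in this age.

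The interaction asked whether the age difference varied with diet. It was past an unadjusted p of 0.05 in 3 members (6%), against 3.62% of all, and in none after adjustment (0% of all were called). The count was 0 if senior APB dog 1 or young APB dog 2 was left out and 8 if young APB dog 3 was. CCNB2 (1604160_at) gave 0.78, CDKN2AIP 1.28 and CDC5L (1596607_at) 0.77, each with adjusted p = 0.808. The CCNB2 probe set passed the filter only because senior dogs fed APB were high, so it lends the count of 3 no support. CDKN2AIP encodes a partner of the p53 regulator ARF and was taken by name only. It read 6.20, 5.00 and 5.34 in senior and 5.00, 4.98 and 4.45 in young adult dogs fed APB, and 4.99, 4.18 and 4.96 in senior and 5.03, 4.88 and 5.95 in young adult dogs fed PPB. The ages overlapped with either diet, and senior APB dog 1, young PPB dog 3 and senior PPB dog 2 were the extreme dogs. CDC5L (1596607_at) read 4.06, 3.76 and 3.82 in senior and 3.82, 3.20 and 3.75 in young adult dogs fed APB, and 3.74, 3.78 and 3.79 in senior and 4.74, 4.22 and 3.80 in young adult dogs fed PPB. Here 3 young adult dogs, young APB dog 2 and young PPB dogs 1 and 2, lay outside the range of the rest.

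Genes that act with the members were counted from lists of the pathway. For age averaged over diets, 12% of all tested probe sets had an unadjusted p under 0.05 and 0.0726% were called. Of 36 further replication genes 12 were tested, with a median age difference of -0.12, and only GMNN, the inhibitor of origin licensing, had an unadjusted p under 0.05 (-0.64, adjusted p = 0.411). Of 49 further mitosis genes 17 were tested, with a median of -0.04. Among these NUSAP1, a spindle protein, had the smallest p and alone an unadjusted p under 0.05 (-1.14, SE 0.32, adjusted p = 0.255), followed by the condensin subunits SMC4 (-0.76, adjusted p = 0.468) and NCAPD2 (-0.22, adjusted p = 0.51) and by FOXM1 (0.23, adjusted p = 0.538), a transcription factor of the G2 phase. A list of 16 genes was headed by RB and the DREAM complex, which silence the cycle in resting cells. It also held genes outside both, such as MYCN and MAX. Of the 16, 8 were tested, these 2 included, and none had an unadjusted p under 0.05. Of 25 genes of p53 and senescence 7 were tested, and only GLB1, the lysosomal enzyme behind the senescence stain, was higher in senior dogs at that level (0.94, SE 0.24, adjusted p = 0.238), followed by BAX (0.05), SESN1 (-0.21) and IGFBP7 (-0.14). No gene of these lists was called.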

How the data were processed

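RNA of liver was labelled and hybridized to Affymetrix canine arrays. The authors deposited log2 values from GCRMA (background correction, quantile normalization and summary by probe set; version not given in the sources used here). They hold 23836 probe sets without 77 controls. The rule behind the study's restriction to expressed probe sets is not given in the sources used here, so the probe sets were ranked by their third-highest value and as many as the study tested were kept, each at 2.85 or more on 3 arrays. A mean per group was fitted to all 12 arrays with limma 3.58.1 in R 4.3.3 (8 residual and 1.32 prior degrees of freedom), with Benjamini-Hochberg adjustment over all tested probe sets within each of 7 contrasts, and members were called at an adjusted p under 0.1 and over 2-fold. Intervals are 95% intervals of that model, and its p-values set a difference against the spread of dogs within groups. The model was tested on simulated data. The number of arrays limits the precision.

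Members, roles and lists of genes were chosen with earlier results of these data known. Symbols are those of the platform's annotation (10549 probe sets with 1 symbol, 138 with several, 13149 with none), and the gene IDs of 65 member probe sets were found in RefSeq with no symbol differing. Differences between groups were taken within a probe set. Levels of different probe sets entered the filter, remarks on brightness, and the choice of 1 probe set per gene in the lists. List levels are means over those probe sets. Named members follow a rule: GTSE1, PCNA, MCM subunits, cyclins and CDK inhibitors where measured, up to 10 members per direction with the smallest p for age, up to 5 in other contrasts, and up to 4 genes of each list. Members outside it, such as CENPA and CDC26, and genes of the lists outside it, such as CD163, were named after their values were seen. Markers were listed for hepatocytes, T and NK cells, B and plasma cells, macrophages, neutrophils, erythroid, stellate and endothelial cells and cholangiocytes. Alternatives changed the filter, the adjustment, the thresholds, the prior, the normalization, array weights, a block for the dog's number, the 3' gap of control transcripts as a covariate, and the dogs included.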

Additional observations from a re-analysis of the deposited data

Results flagged for a closer look

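CENPP was set apart in 1 young adult dog: young PPB dog 1 read 11.62, against 11.96 to 12.12 in the other 5. This was 1 of 20 sets of 6 dogs examined for a dog far from the others, and chance sets apart about 1 in 20. The age difference varied with diet at an unadjusted p under 0.05 in CDKN2AIP (1.28 on the log2 scale, the value with APB less the value with PPB), CCNB2 (0.78) and CDC5L (0.77), each with adjusted p = 0.808 by limma. The CCNB2 probe set passed the filter only because senior dogs fed APB were high.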

How the results depend on the processing

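No member was called in any contrast under the filters, adjustments, thresholds, priors, quantile normalization or covariate tried: of 176 values of this count under alternatives over the 7 contrasts, 167 were 0. The exceptions were array weights and leaving out a dog. With array weights 1 member was called for age averaged over diets (RFC1, 2% of members against 3.3% of all). For age with PPB 3 were (CDC5L, GTSE1 and RFC1, 6% against 3.56%). For diet averaged over ages 1 was (MCMBP, 2% against 4.2%), and for diet in young adult dogs 2 were (MCMBP and RRM1, 4% against 5.51%). Without senior PPB dog 1 the count was 1 for age averaged over diets (RFC1, 2% against 1.05%) and 1 with PPB (GTSE1, 2% against 0.421%). Without young APB dog 3 it was 1 for age with APB (RRM1, 2% against 6.2%) and 1 for diet averaged over ages (MCMBP, 2% against 3.51%). For diet in young adult dogs it was then 2 (MCMBP and RRM1, 4% against 6.97%). That setting left only young APB dogs 1 and 2 in their group, the pair with the widest 3' gap. Otherwise the count without 1 dog was 0. With array weights the members at an unadjusted p under 0.05 numbered 10 for age with PPB, 14 for diet averaged over ages, 9 for diet in seniors, 10 for diet in young adult dogs, and 6 for the interaction. Those for age averaged over diets ran from 7 to 15 without 1 dog and fell to 6 without the 4 dogs whose arrays stand apart, a setting chosen after seeing the data. The share of all tested probe sets at an unadjusted p under 0.05 was not worked out for these settings. The counts are therefore not read as a result about the members. The dog's number as a replicate block gave 0 members called in each contrast; same-numbered dogs correlated at -0.39 to 0.46 in 18 pairs, so the numbers were not taken to pair the dogs. Some differences changed sign, among them 2 that had an unadjusted p under 0.05 (RRM1 1592495_at, 0.98 for diet in young adult dogs, and CDKN2AIPNL, -0.58 for age with APB). The changed values were, with array weights, CDKN2C (-0.033) and RFC1 1600698_at (0.014) for age; with the covariate CCNB2 1584758_at (0.24); without young APB dogs 1 and 2 the same CCNB2 probe set (0.24), RRM1 1592495_at (0.027 for age, -0.010 for diet in young adult dogs) and CDKN2AIPNL (0.065 for age with APB); and without the 4 dogs CDC34 1585531_at (-0.12), BUB3 1585572_at (0.053), CCNB2 1584758_at (0.17), CDKN2D (-0.026), MCM7 1591808_at (-0.0086), RRM1 1592495_at (0.034 and -0.010) and CDKN2AIPNL (0.15). Leaving out 1 dog moved CDKN2C from -0.15 to 0.36, CDKN2D from -0.020 to 0.10, MCM7 1591808_at from -0.020 to 0.23 and RFC1 1600698_at from -0.14 to 0.034. The causes were not tested.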

Other observations

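Altogether 5 genes of the growth hormone axis, listed because the young adult dogs had grown, were tested, and none had an unadjusted p under 0.05. IGF1, the growth factor that liver releases, differed by -0.69 (SE 0.52, adjusted p = 0.614) in senior dogs and the growth hormone receptor GHR by -0.46 (SE 0.36, adjusted p = 0.621). The binding proteins IGFBP1 (-2.04, SE 1.18, adjusted p = 0.51) and IGFBP2 (1.25, SE 0.91, adjusted p = 0.601) lay furthest from 0, in opposite directions. The median over these genes was -0.46.

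For the other marker lists, the median age difference was -0.04 for hepatocytes (10 genes tested), 0.57 for T and NK cells (4), 0.06 for B and plasma cells (3), 0.46 for neutrophils (2), 0.60 for the single erythroid gene, -0.09 for stellate cells and fibroblasts (8), 0.15 for endothelial cells (5) and 0.48 for cholangiocytes (2). No gene of these lists was called.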
